A study of Mus musculus with 3 samples.

Results

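The insulin-like growth factor (IGF) genes described here are the ligands Igf1 and Igf2, the receptor Igf1r and the binding proteins Igfbp2 to Igfbp7, 9 of the 27998 genes in the count tables, chosen by name. They were measured in 3 single-cell RNA libraries of lung cells from MMTV-HER2/Neu mice on the FvB background, in which the mouse mammary tumour virus promoter, active mainly in mammary epithelium, drives the HER2/Neu oncogene. The late HER2-positive library holds CD45-negative HER2-positive cells of mice older than 20 weeks with primary tumours. The early HER2-positive library holds cells of the same sort from mice of 14 to 18 weeks without palpable tumours, and the early HER2-negative library holds CD45-negative HER2-negative cells of mice of that age and stage. All mice carry the transgene, so the HER2-negative cells are not cells of transgene-free animals, and the labels do not say whether animals were pooled. Each group is 1 library made with the Chromium 3' v3 kit: stage, age, animal and sort cannot be told apart from the library, no test between groups was possible, and no p-value is given.

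IGF1 and IGF2 are secreted peptides that signal growth and survival mainly through the receptor tyrosine kinase IGF1R. Most IGF in tissue is held by secreted binding proteins, which can withhold the ligand from the receptor or store and deliver it. The protein of Igfbp7 binds IGF far less tightly than the others and is best known as a component of vessel walls and matrix. In lung, mesenchymal cells are a known source of Igf1, and Igfbp2 is a known gene of alveolar type 1 cells, the flat cells of gas exchange.

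On GRCm38/mm10, in the GENCODE annotation, Igf1 (ENSMUSG00000020053) lies at chr10:87858265-87937042, Igf2 (ENSMUSG00000048583) at chr7:142650766-142666816 and Igf1r (ENSMUSG00000005533) at chr7:67952827-68233668. Igfbp2 (ENSMUSG00000039323, chr1:72824503-72852474, plus strand) and Igfbp5 (ENSMUSG00000026185, chr1:72857932-72874884, minus strand) are neighbours that point at each other with 5457 bases between their ends. Igfbp3 (ENSMUSG00000020427) lies at chr11:7206086-7213923, Igfbp4 (ENSMUSG00000017493) at chr11:99041244-99054392, Igfbp6 (ENSMUSG00000023046) at chr15:102144362-102149511 and Igfbp7 (ENSMUSG00000036256) at chr5:77349240-77408041. The 100 bases just before the RefSeq gene start (GRCm38.p6) are shown for the neighbours Igfbp2 and Igfbp5, whose highest cell classes differ below, and for Igfbp3 and Igfbp4. Each runs 5' to 3' on the gene's own strand and ends at the base before the start, and capitals mark a TATA-like word read on either strand, which was TATAAA in Igfbp4, TATATA in Igfbp3 and TTTAAA in Igfbp5.
Igfbp2: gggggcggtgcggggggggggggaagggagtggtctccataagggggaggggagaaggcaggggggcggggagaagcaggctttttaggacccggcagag
Igfbp5: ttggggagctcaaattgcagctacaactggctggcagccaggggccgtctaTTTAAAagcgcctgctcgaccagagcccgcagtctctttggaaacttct
Igfbp3: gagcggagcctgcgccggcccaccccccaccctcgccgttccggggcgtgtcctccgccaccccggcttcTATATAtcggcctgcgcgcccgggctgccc
Igfbp4: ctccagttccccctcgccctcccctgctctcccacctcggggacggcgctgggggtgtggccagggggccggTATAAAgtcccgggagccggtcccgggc
These windows are chr1:72824380-72824479 (plus), chr1:72874866-72874965 (minus), chr11:7213924-7214023 (minus) and chr11:99041144-99041243 (plus), in the order of the lines. Igfbp5, Igfbp3 and Igfbp4 held 1 of the 3 words each and Igfbp2 held none, while at least 1 of the words occurred in 10.9% of 32851 RefSeq promoters over the same window. None of the 3 words occurs in the same window of the other 5 genes. A match of letters is a description and not evidence of use.

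Cells were placed in 7 classes by marker genes that are not members of the family, each barcode going to the first class whose rule it met. The late HER2-positive, early HER2-positive and early HER2-negative libraries gave 6012, 7622 and 6416 barcodes with at least 1000 unique molecular identifiers (UMIs), and median depths of 8075, 5318.5 and 3166 UMIs. Levels are counts per 1000000 UMIs of the class (CPM), with 95% exact Poisson intervals, and ratios carry 95% exact conditional intervals. All intervals cover counting error only, not differences between animals. In every class with at least 50 cells, the summed CPM of the class's own markers was higher than in any other class. These sums include the genes that set the classes, so this order is largely fixed by the rules and does not test them. Ptprc, the gene of CD45, had 8, 30 and 22 UMIs in the kept barcodes of the late HER2-positive, early HER2-positive and early HER2-negative libraries.

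The labels name both HER2-positive libraries as cancer cells, yet a mammary profile, set by at least 1% of UMIs on the milk gene Csn3 and the secretory gene Wfdc18, was met by 161 barcodes of the late library and by none of the other two. 0 of 7622 early HER2-positive barcodes allows a share of up to 0.0394%. Alveolar type 2 (AT2) cells, which make surfactant, numbered 3996 in the late and 3939 in the early HER2-positive library. Endothelial cells numbered 479, 1519 and 5179, smooth muscle cells 297, 547 and 60, pericytes 626, 755 and 147, and fibroblasts 75, 277 and 692 in the late HER2-positive, early HER2-positive and early HER2-negative libraries. The HER2-negative library held 46 AT2 and 49 alveolar type 1 (AT1) barcodes, too few for a comparison.

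The AT1 class, with 108 late and 238 early HER2-positive barcodes, is mixed. Of these, 69 late and 165 early barcodes had at least 0.2% of their UMIs on the AT1 genes Ager and Rtkn2, a limit set after the data were seen. The whole late class held 199437 CPM of the club cell gene Scgb1a1, against 11882 CPM in the early HER2-positive class. AT1 levels of Igf1r, Igfbp2, Igfbp6 and Igfbp7 are therefore given for the class and for this purer subset.

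**Figure D1:**
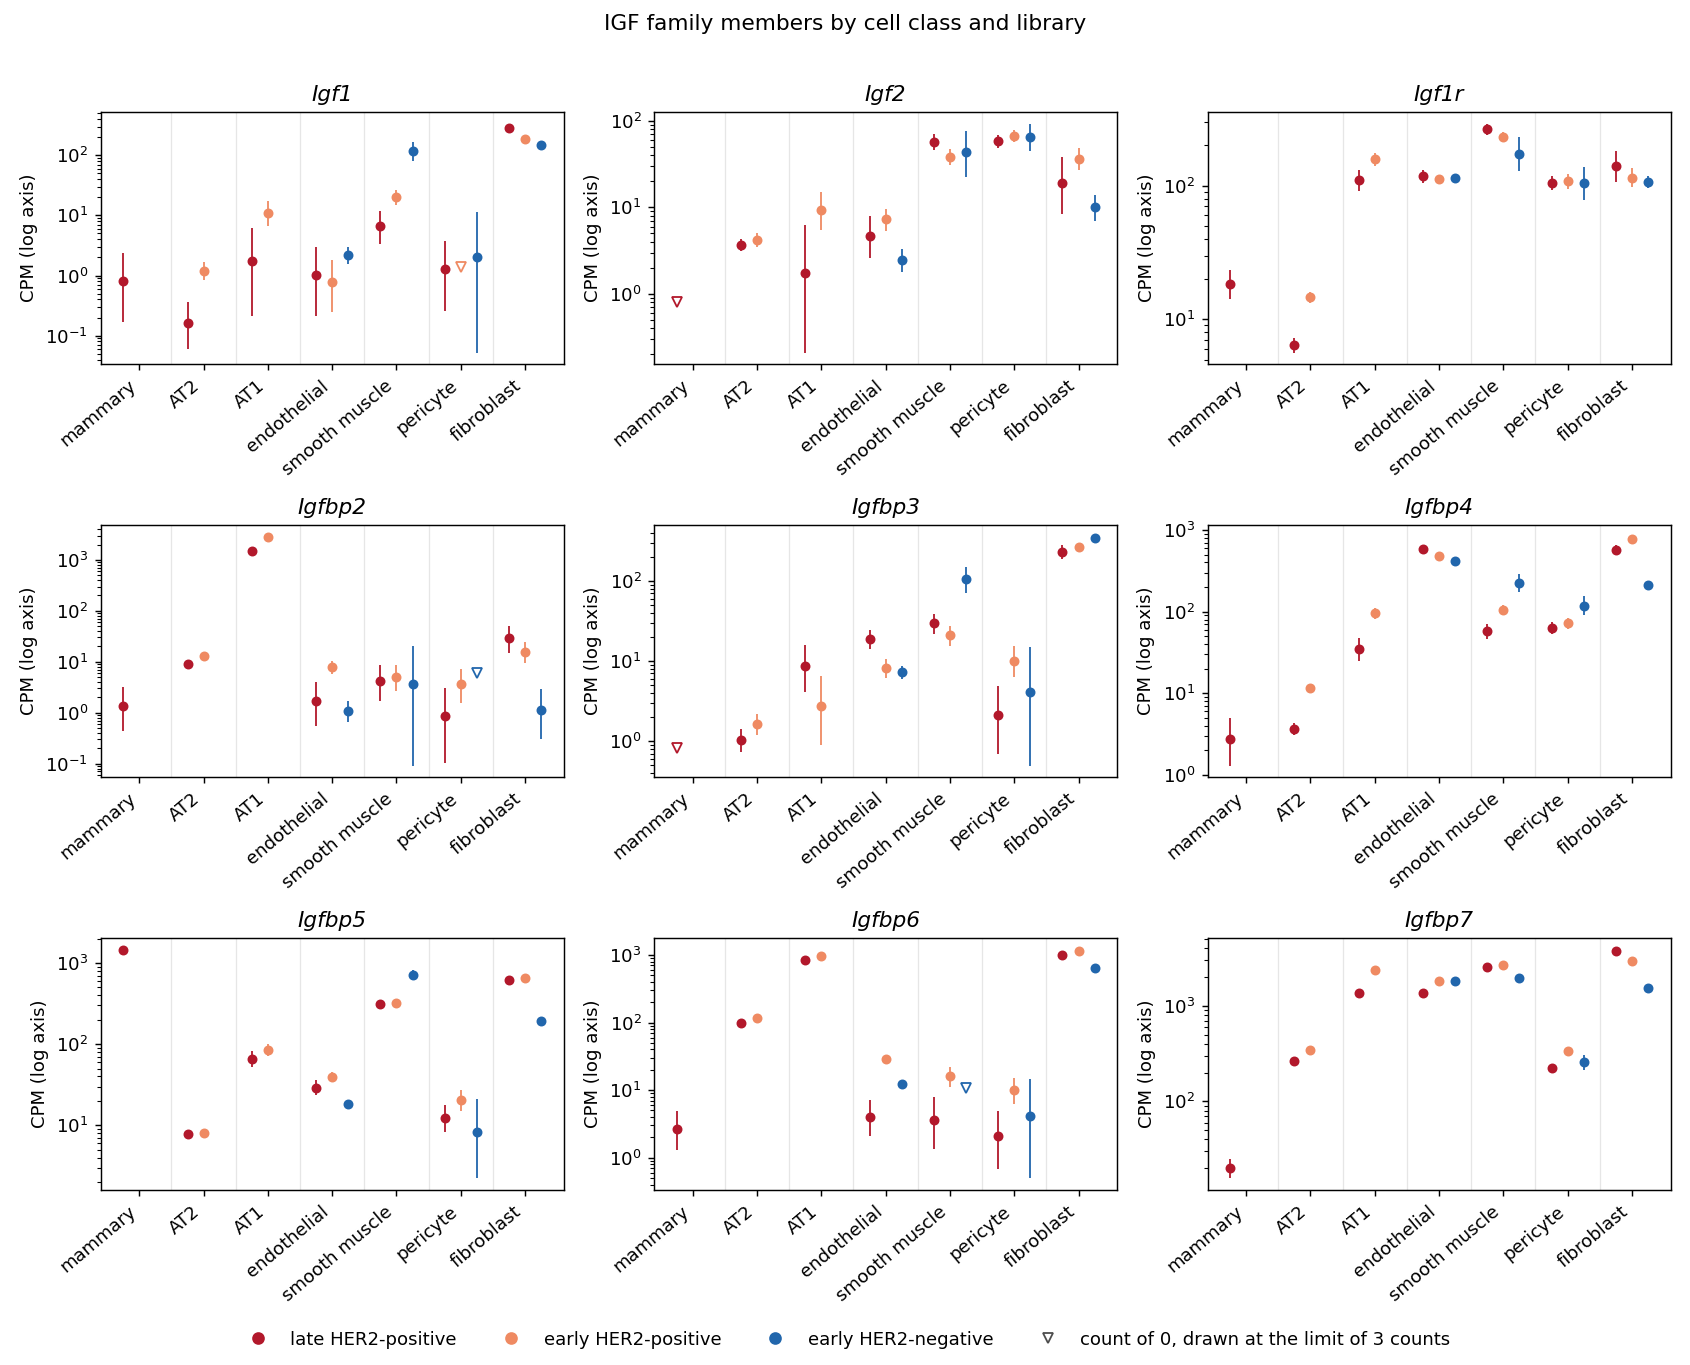
Level of each of the 9 genes (CPM, log axis) in 7 cell classes of the late HER2-positive, early HER2-positive and early HER2-negative libraries, 1 library per group and classes of at least 50 cells; bars are 95% exact Poisson intervals. Igf1 and Igfbp3 stand highest in fibroblasts, Igfbp2 in AT1 cells, and Igfbp5 in mammary cells of the late library.

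Of the ligands, Igf1, the main growth factor downstream of growth hormone, was highest in the fibroblasts of every library. It had 280 CPM (232 to 336) in late HER2-positive, 186 CPM (164 to 211) in early HER2-positive and 148 CPM (136 to 162) in early HER2-negative fibroblasts. The next class was smooth muscle, with 6.64 CPM in the late and 20.2 CPM in the early HER2-positive library. Smooth muscle of the HER2-negative library stood out at 116 CPM (79.3 to 164), an interval that overlaps its own fibroblasts. There, 11 of 60 cells had a UMI of Hhip, a Hedgehog-binding gene of myofibroblasts, and these held 613 CPM of Igf1 against 17.4 CPM in the other 49 cells. The Hhip-positive cells of the early HER2-positive library, 16 in number, likewise held 567 CPM of Igf1, against 5.18 CPM in the other 531 smooth muscle cells.

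Igf2, the ligand best known from fetal growth and an imprinted gene, was, of the classes, highest in pericytes. They had 58.3 CPM (49.0 to 68.9) in the late HER2-positive, 66.8 CPM (56.4 to 78.6) in the early HER2-positive and 65.5 CPM (44.8 to 92.5) in the early HER2-negative library. Smooth muscle had 56.8, 38.3 and 43.5 CPM in the same order of libraries, and fibroblasts had 19.2, 36.5 and 9.97 CPM. Early HER2-positive fibroblasts with myofibroblast genes, 43 cells, had 103 CPM (59.1 to 168) on 16 UMIs. The pericyte interval was above that of smooth muscle in the early HER2-positive library and overlapped it in the other two. Mammary cells had no Igf2 UMI, which allows up to 0.811 CPM. Igf2 was spread over many cells: the 138 UMIs of late pericytes came from 118 cells and the 146 of early HER2-positive pericytes from 121 cells.

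An antisense gene overlaps each ligand gene in the annotation, and the sources used here do not state whether counting used the strand. Igf1os had no UMI in any library, and Igf2os had 13, 8 and 2 UMIs beside 396, 495 and 135 of Igf2 in the late HER2-positive, early HER2-positive and early HER2-negative libraries.

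The receptor gene Igf1r was spread over all classes, with low levels in AT2 and mammary cells. Smooth muscle was highest at 265 CPM (241 to 291) in the late HER2-positive, 233 CPM (214 to 253) in the early HER2-positive and 174 CPM (128 to 231) in the early HER2-negative library. Endothelial cells, pericytes and fibroblasts lay between 104 and 141 CPM in all 3 libraries, and within each library their intervals overlapped. AT1 barcodes had 110 CPM in the late and 158 CPM in the early HER2-positive library, and the purer AT1 subset had 198 and 187 CPM. AT2 cells were lowest, with 6.42 CPM (5.63 to 7.30) in the late and 14.6 CPM (13.3 to 16.1) in the early HER2-positive library. Mammary cells had 18.4 CPM (14.3 to 23.3), with Igf1r UMIs in 49 of 161 cells. Ciliated-like barcodes, which met no class rule and were picked by the ciliary genes Foxj1, Tmem212 and Ccdc153, had 200 CPM in the late and 178 CPM in the early HER2-positive library.

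Igfbp2, whose protein binds IGF2 with preference, was an AT1 gene. It had 1465 CPM (1396 to 1536) in late and 2807 CPM (2730 to 2886) in early HER2-positive AT1 barcodes, and 4674 CPM in the 49 HER2-negative ones. No other class reached 30 CPM. In the purer AT1 subset it had 3421, 4801 and 5420 CPM, while the remaining late and early HER2-positive AT1 barcodes had 9.04 and 74.8 CPM. Ciliated-like barcodes carried 96.4 CPM in the late and 82.5 CPM in the early HER2-positive library.

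Igfbp3, the main IGF carrier of serum, was highest in fibroblasts. It had 232 CPM (188 to 283) in late HER2-positive, 264 CPM (237 to 294) in early HER2-positive and 339 CPM (320 to 359) in early HER2-negative fibroblasts. Smooth muscle followed with 29.6, 21.0 and 105 CPM in the same order of libraries, and mammary cells had none, with a limit of 0.811 CPM.

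Igfbp4, an inhibitory binding protein that the protease PAPP-A cleaves, was shared by endothelial cells and fibroblasts. Endothelial cells had 585 CPM (558 to 613) in the late HER2-positive, 476 CPM (459 to 493) in the early HER2-positive and 419 CPM (409 to 428) in the early HER2-negative library. Fibroblasts had 570, 785 and 214 CPM. The leading class therefore differed by library: the late intervals overlapped, fibroblasts led in the early HER2-positive library and endothelial cells in the HER2-negative one.

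Igfbp5, a matrix-bound binding protein known for its induction in the involuting mammary gland, was highest in mammary cells, which are described further below. Among lung classes it was high in fibroblasts, at 613, 660 and 195 CPM, and in smooth muscle, at 315, 324 and 721 CPM, in the late HER2-positive, early HER2-positive and early HER2-negative libraries. Its order of these classes was opposite in the HER2-negative library and the HER2-positive ones. Ciliated-like barcodes had 1211 CPM in the late and 1166 CPM in the early HER2-positive library. In fibroblasts 1 cell held 30.9% of the late UMIs, 1 held 25.5% of the early HER2-positive and 1 held 22.1% of the HER2-negative ones, so the Poisson intervals are too narrow there. Igfbp2 and its neighbour Igfbp5 thus had different highest classes, and across the 17 class and library units of at least 50 cells their log2 levels had a Pearson r of 0.00961.

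Igfbp6, the binding protein with the strongest preference for IGF2, was a gene of fibroblasts and alveolar epithelium. Fibroblasts had 989, 1160 and 634 CPM in the late HER2-positive, early HER2-positive and early HER2-negative libraries. AT1 barcodes had 855 CPM in the late and 978 CPM in the early HER2-positive library, and the purer AT1 subset had 1861 and 1623 CPM. AT2 cells had 98 CPM (94.8 to 101) in the late and 118 CPM (114 to 122) in the early HER2-positive library, with UMIs in 2041 of 3996 and 1905 of 3939 cells. Endothelial Igfbp6 rested on few cells: 1 cell held 68.4% of the early HER2-positive UMIs and 1 held 42.9% of the HER2-negative ones.

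Igfbp7 separated the mural cells. Smooth muscle had 2528 CPM (2452 to 2606), 2685 CPM (2619 to 2752) and 1961 CPM (1799 to 2133) in the late HER2-positive, early HER2-positive and early HER2-negative libraries. Pericytes, which share the vessel wall with smooth muscle, had 223, 340 and 256 CPM. The level of smooth muscle was thus far above that of pericytes in each library, with intervals that did not overlap. Fibroblasts had 3723, 2944 and 1549 CPM, and endothelial cells 1365, 1808 and 1824 CPM. AT1 barcodes had 1349 CPM in the late and 2384 CPM in the early HER2-positive library, and the purer AT1 subset had 2358 and 3056 CPM.

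Barcodes with too few UMIs to be cells hold mainly free RNA. In barcodes with 1 to 100 UMIs, Igfbp7 had 415, 720 and 1394 CPM and Igfbp4 had 61.6, 103 and 285 CPM in the late HER2-positive, early HER2-positive and early HER2-negative libraries. Of 153 member levels in classes of at least 50 cells, 68 had an interval wholly below the level of that gene in these low-UMI barcodes, among them 17 of 18 in AT2 cells and 18 of 27 in pericytes. The part of free RNA in low levels was not tested cell by cell.

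Mammary cells of the late library differed from AT2 cells of the same library mainly in Igfbp5. They had 1441 CPM (1402 to 1480), against 7.76 CPM (6.88 to 8.72) in AT2 cells, a ratio of 186 (165 to 210). The UMIs came from 147 of 161 mammary cells, against 52 of 3996 AT2 cells, where 1 cell held 44.7% of them. After each cell was thinned to 1000 UMIs, 57.1% of mammary cells (49.1 to 64.9) and 0.225% of AT2 cells (0.103 to 0.427) had an Igfbp5 UMI. The AT2 level was below the 97.8 CPM of the low-UMI barcodes, and the part of free RNA in it was not tested. Without the 1 AT2 cell with most Igfbp5, the ratio was 336. The median depth was 22179 UMIs in mammary and 8837 UMIs in AT2 cells.

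**Figure D2:**
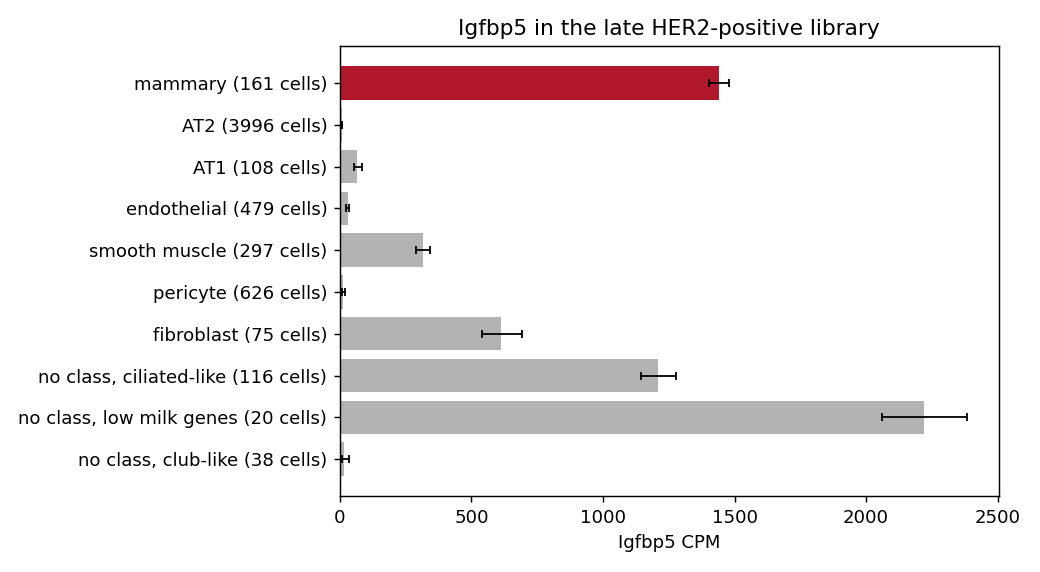
Igfbp5 (CPM, axis from 0) in the late HER2-positive library, by class and by subset of barcodes that met no class rule; black bars are 95% exact Poisson intervals and the number of cells stands beside each name. Mammary cells had 1441 CPM and the 20 barcodes with fewer milk gene UMIs had 2219 CPM, with ciliated-like barcodes at 1211 CPM.

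Igfbp5 also reached 2219 CPM (2062 to 2385) in 20 late barcodes outside the classes that had 0.1% to under 1% of UMIs on Csn3 and Wfdc18. Fibroblasts were the lung class with the highest Igfbp5 in the late library, and the mammary level was above theirs with intervals apart, but it was not far from that of ciliated-like barcodes. The other binding proteins were low in mammary cells: Igfbp7 had 20.0 CPM, against 264 CPM in AT2 cells, a ratio of 0.0757 (0.0594 to 0.0951). Igfbp6 had 2.70 CPM, against 98 CPM in AT2 cells, a ratio of 0.0276 (0.0132 to 0.0508). Igfbp2 had 1.35 CPM, against 8.99 CPM in AT2 cells. Igf1r stood at 18.4 CPM, against 6.42 CPM in AT2 cells, a ratio of 2.86 (2.15 to 3.76). Igf2 and Igfbp3 had no UMI in mammary cells, at most 0.220 and 0.781 of the AT2 level with 3 counts in place of 0.

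In these terms 2 members were at least 1.5-fold higher and 5 at least 1.5-fold lower in mammary than in AT2 cells, out of 8 with at least 10 counts, where a count of 0 was set to 0.5. Igfbp3 is among the 5 only by that setting, since its bound from 3 counts does not reach 1.5-fold. Over all 13746 genes so measured, 69.2% were at least 1.5-fold apart, 45.2% higher and 24% lower, so a high count of members is not particular to them. Of 31 other genes of the IGF pathway, 25 were measured, with 12 higher and 5 lower. Among the highest were Adam12, a protease that cleaves IGF-binding proteins, with 28.4 CPM in mammary and 0.109 CPM in AT2 cells, and Igfals, the acid-labile subunit of the serum IGF complex, with 191 CPM in mammary and 1.83 CPM in AT2 cells. The lowest were the receptor adaptor Grb14, with 12.4 CPM in mammary and 203 CPM in AT2 cells, the secreted protease gene Htra1, with 0.811 CPM in mammary and 11.8 CPM in AT2 cells, and the kinase gene Pik3ca, with 30.01 CPM in mammary and 86.0 CPM in AT2 cells.

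The stage comparison set the late against the early HER2-positive library within 6 classes. In AT2 cells the members were low and mostly lower in the late library, and 0 were at least 1.5-fold higher and 4 at least 1.5-fold lower of 9 measured, beside 18.9% of 14230 genes either way, with 3.66% higher and 15.3% lower. Igf1r had 6.42 CPM in the late and 14.6 CPM in the early library, a ratio of 0.439 (0.372 to 0.516), and Igfbp4 had 3.66 CPM in the late and 11.4 CPM in the early library, a ratio of 0.320 (0.260 to 0.393). In the low-UMI barcodes the same genes were also lower in the late library: Igf1r had 19.9 CPM in the late and 35.3 CPM in the early one, and Igfbp4 had 61.6 CPM in the late and 103 CPM in the early one. With that profile taken off, Igf1r stayed at least 1.5-fold lower, and Igf1, Igfbp3 and Igfbp4 had a side at 0 and gave no value. The better measured Igfbp6 and Igfbp7 had ratios of 0.828 (0.790 to 0.868) and 0.759 (0.738 to 0.780), which became 0.946 and 0.951 with that profile taken off.

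In AT1 barcodes 1 member was at least 1.5-fold higher and 5 at least 1.5-fold lower, beside 39.5% of 11091 genes, with 5.38% higher and 34.1% lower. The higher one was Igfbp3, on 10 late and 5 early UMIs, with an interval that includes 1. Igfbp2 had a late to early ratio of 0.522 (0.494 to 0.551) in the class and of 0.713 (0.674 to 0.753) in the purer subset. Igfbp7 had ratios of 0.566 (0.5337 to 0.5997) and 0.771 (0.721 to 0.825) in the class and the subset. For Igfbp6 the direction turned: 0.874 (0.808 to 0.945) in the class and 1.15 (1.06 to 1.24) in the subset. Igfbp4 and Igfbp5 lay further from 1 in the subset, at 0.220 (0.0685 to 0.551) and 0.326 (0.149 to 0.638), on 5 and 10 late UMIs. In addition, 55 of the 238 early HER2-positive AT1 barcodes also met the endothelial rule, against 11 of the 108 late ones.

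In endothelial cells 1 member was at least 1.5-fold higher and 3 at least 1.5-fold lower of 8 measured, beside 17.6% of 12245 genes, with 6.78% higher and 10.9% lower. Igfbp3 was the higher one, with 18.8 CPM (14.2 to 24.5) in the late and 8.22 CPM (6.16 to 10.7) in the early HER2-positive library, a ratio of 2.29 (1.55 to 3.40). Its UMIs came from only 14 late and 17 early cells, and without the 1 early cell that held 41.5% of the early UMIs the ratio was 3.92. Igfbp4 had a ratio of 1.23 (1.16 to 1.30) and Igfbp7 of 0.755 (0.728 to 0.782), both on over 1000 UMIs a side. The direction of Igfbp4 differed between vessel subsets, described further below. Its ratio was 0.870 (0.779 to 0.971) in general capillary-like, 1.18 (1.09 to 1.29) in Vwf-picked and 1.32 (1.14 to 1.54) in aerocyte-like cells. Vwf-picked cells were 32.2% of late and 18.4% of early endothelial cells, and the part of these shares in the class ratios was not tested. The 3 lower members, Igf2, Igfbp2 and Igfbp6, had 14, 5 and 12 UMIs in late endothelial cells.

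In smooth muscle 0 members were at least 1.5-fold higher and 3 at least 1.5-fold lower, beside 20.7% of 11365 genes, with 8.57% higher and 12.1% lower. Igfbp4 had 57.4 CPM in the late and 106 CPM in the early library, a ratio of 0.542 (0.423 to 0.688), and 1 early cell held 29.4% of the early UMIs. Without that cell the ratio was 0.767. Igf1 and Igfbp6, the other lower members, had 11 and 6 late UMIs. Without the Hhip-positive cells, 2 late and 16 early, Igf1 had 4 late and 12 early UMIs and a ratio of 0.470 (0.110 to 1.55). Igfbp3 then had a ratio of 2.56 (1.57 to 4.26), on 49 late and 27 early UMIs, with 38.8% of the late ones in 1 cell. Igf2 then had a ratio of 1.54 (1.14 to 2.09). Both were thus at least 1.5-fold higher in that subset, where 20.5% of 11310 genes were 1.5-fold apart. In the whole class Igf2 had a ratio of 1.48 (1.10 to 2.002), just inside the 1.5-fold limit. Igfbp5 and Igfbp7, the best measured, had ratios of 0.974 and 0.941 in the class.

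In pericytes 0 members were at least 1.5-fold higher and 5 at least 1.5-fold lower of 8 measured, beside 17.6% of 11127 genes, with 7.21% higher and 10.4% lower. Igfbp7 led by counts, with 223 CPM (204 to 243) in the late and 340 CPM (316 to 365) in the early library, a ratio of 0.657 (0.586 to 0.736). The other 4, Igfbp2, Igfbp3, Igfbp5 and Igfbp6, rested on 2 to 29 late UMIs, and 1 early cell held 68.2% of the early Igfbp3 UMIs, without which the Igfbp3 ratio was 0.659. Of the pericytes, 319 of 626 late and 312 of 755 early ones also met the fibroblast rule. Without barcodes that met more than 1 rule, 2 members were apart and Igfbp5 turned to a ratio of 1.46. The pericyte's own ligand gene, Igf2, had a ratio of 0.873 (0.686 to 1.11) and Igf1r of 0.970 (0.808 to 1.16).

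In fibroblasts 2 members were at least 1.5-fold higher and 1 at least 1.5-fold lower, beside 32.6% of 10367 genes, with 15.2% higher and 17.4% lower, a share like that of the members. Igf1 had a ratio of 1.5 (1.19 to 1.88), with 22.2% of the late UMIs in 1 cell, and without that cell the ratio was 1.17. Igfbp2 and Igf2 rested on 12 and 8 late UMIs, and without the late cell with most UMIs of each the ratios were 0.925 and 0.262. Igfbp7 had a ratio of 1.26 (1.19 to 1.34), Igfbp4 of 0.726 (0.628 to 0.837) and Igfbp6 of 0.852 (0.763 to 0.951), none at 1.5-fold. The late library held 75 fibroblasts, the smallest class compared at this stage.

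**Figure D3:**
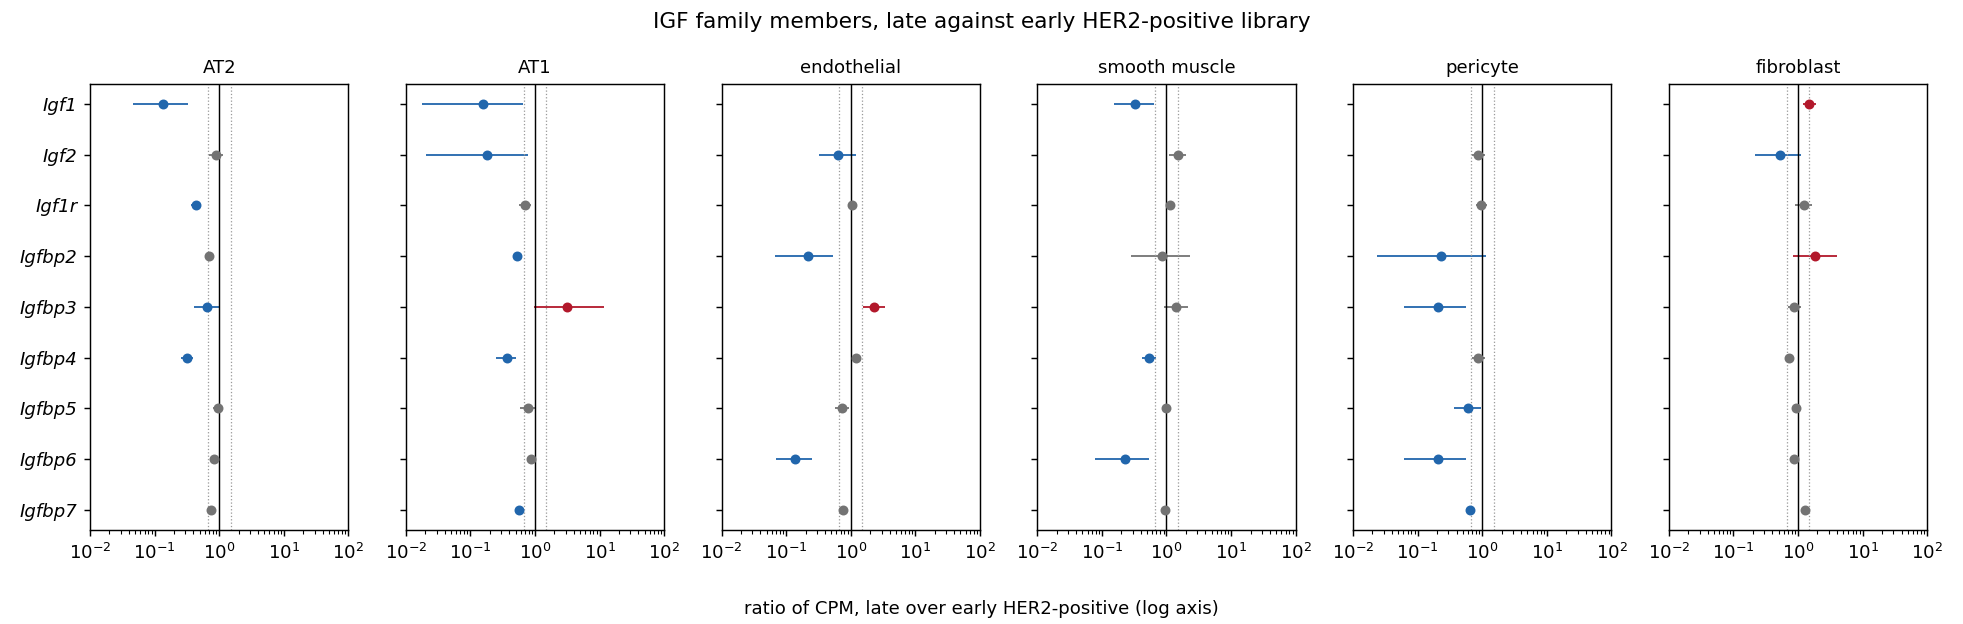
Ratio of CPM in the late over the early HER2-positive library (log axis) for the 9 genes in 6 cell classes, 1 library per group; bars are 95% exact conditional intervals cut at the axis ends, dotted lines mark 1.5-fold, red points are at least 1.5-fold higher and blue points at least 1.5-fold lower in the late library. Igf1 lies at 1.5 in fibroblasts, or 1.17 without 1 late cell, and at 0.136 in AT2 cells, on 6 late and 35 early UMIs.

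Among the 31 other pathway genes, between 0 and 4 were at least 1.5-fold higher and between 1 and 7 at least 1.5-fold lower in a class. Over all genes measured, 3.66% to 15.2% were higher and 10.4% to 34.1% lower, depending on the class. The growth hormone receptor Ghr was lower in several classes: it had 63.8 CPM in late and 116 CPM in early HER2-positive pericytes, a ratio of 0.549, and 105 CPM in late and 164 CPM in early fibroblasts, a ratio of 0.643. In AT2 cells Ghr had 10.2 CPM in the late and 18.5 CPM in the early library. In endothelial cells Irs1, an adaptor of the receptor, had 3.36 CPM in the late and 11.9 CPM in the early library, while Htra1 had 65.6 CPM in the late and 42.2 CPM in the early one. In fibroblasts Pappa, the gene of the protease that cleaves the Igfbp4 protein, had 59.9 CPM in the late and 38.0 CPM in the early library. H19, the imprinted neighbour of Igf2, had 13.9 CPM in late and 6.31 CPM in early smooth muscle, a ratio of 2.20.

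The comparison by sort set the early HER2-positive against the early HER2-negative library within 4 classes; it shares the early HER2-positive library with the stage comparison, so the values are not independent. Fibroblasts showed the most members apart: 6 at least 1.5-fold higher and 0 at least 1.5-fold lower of 9, beside 31.3% of 11692 genes either way, with 17.9% higher and 13.4% lower. Igfbp4 had 785 CPM (737 to 835) in HER2-positive and 214 CPM (199 to 230) in HER2-negative fibroblasts, a ratio of 3.67 (3.34 to 4.04). Igfbp5 had 660 CPM in HER2-positive and 195 CPM in HER2-negative fibroblasts, a ratio of 3.39 (3.06 to 3.76). For Igfbp7 the ratio was 1.90 (1.82 to 1.98) and for Igfbp6 it was 1.83 (1.71 to 1.96). The other higher members, Igf2 and Igfbp2, had fewer counts. Igf2 had a ratio of 3.66 (2.31 to 5.84) on 47 HER2-positive and 35 HER2-negative UMIs. Igfbp2 had 13.6 (4.56 to 54.8) on 20 and 4 UMIs, with 50% of the 20 in 1 cell. The Igfbp2 levels of both libraries were below those of the low-UMI barcodes. Igf1 had a ratio of 1.26 (1.07 to 1.47), Igf1r of 1.08 (0.883 to 1.30) and Igfbp3 of 0.778 (0.687 to 0.878). The Igf1 interval included 1 within adventitial-like and within alveolar-like fibroblasts, described further below.

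**Figure D4:**
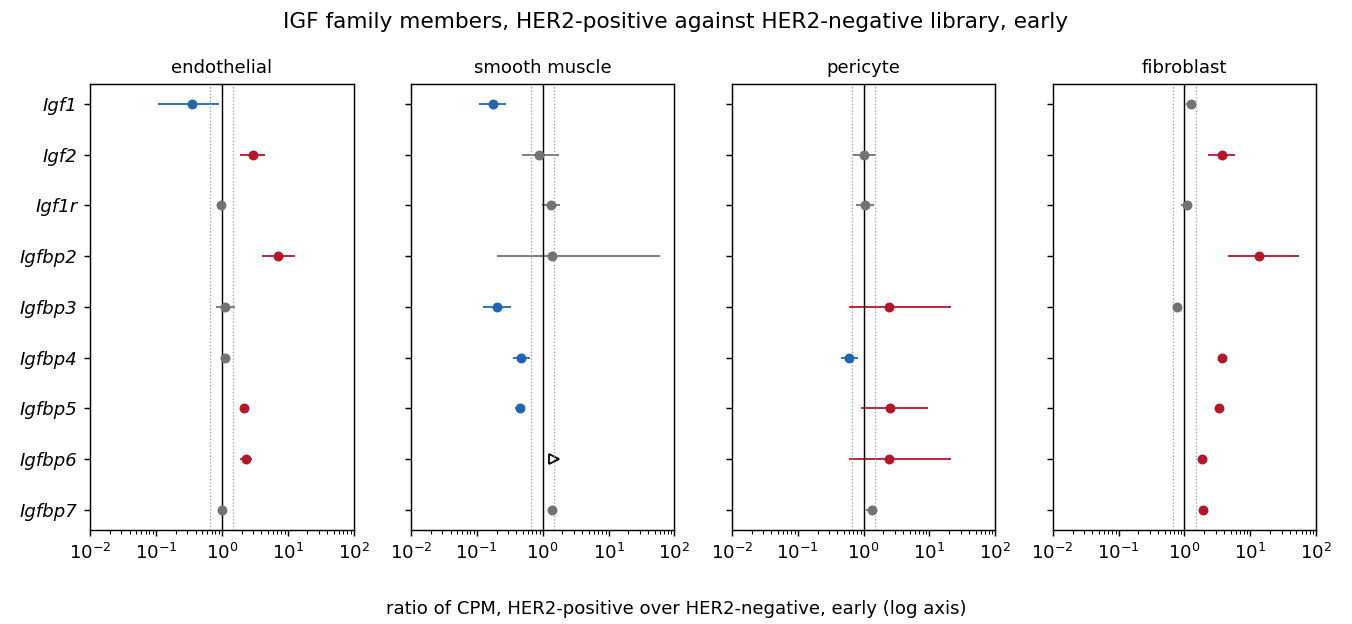
Ratio of CPM in the early HER2-positive over the early HER2-negative library (log axis) for the 9 genes in 4 cell classes, 1 library per group; bars are 95% exact conditional intervals cut at the axis ends, dotted lines mark 1.5-fold, red and blue points are at least 1.5-fold higher and lower in the HER2-positive library, and the open triangle is a lower bound of 1.47. Igfbp4 and Igfbp5 lie at 3.67 and 3.39 in fibroblasts and at 0.472 and 0.449 in smooth muscle.

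The fibroblast class held different kinds of fibroblasts in the 2 early libraries. Adventitial-like cells, which lie around vessels and airways and were picked by Pi16, Col14a1, Cd248 and Serpinf1, were 44.0% of late HER2-positive, 40.4% of early HER2-positive and 20.1% of early HER2-negative fibroblasts. Alveolar-like cells, picked by Npnt, Inmt, Tcf21 and Ces1d, were 25.3%, 30.7% and 71.7%. Each cell went to the first subset it met, and the limits were set after the data were seen. Igfbp5 had 988, 957 and 737 CPM in adventitial-like cells of the late HER2-positive, early HER2-positive and early HER2-negative libraries, against 70.6, 21.8 and 3.27 CPM in alveolar-like ones. Igfbp4 had 902, 1361 and 836 CPM in adventitial-like cells, against 200, 95.5 and 23.3 CPM in alveolar-like ones. Igfbp6 had 1592, 1954 and 1699 CPM in adventitial-like cells, against 247, 437 and 265 CPM in alveolar-like ones. In all 3 libraries these binding proteins were thus higher in adventitial-like cells, whereas Igfbp3 had adventitial-like over alveolar-like ratios of 0.592, 0.737 and 1.14.

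Within adventitial-like cells, 112 HER2-positive and 139 HER2-negative, the ratios between the sorts were smaller than in the whole class for the 4 best counted of the higher members. Igfbp4 had 1.63 (1.47 to 1.80), Igfbp5 1.30 (1.16 to 1.46), Igfbp7 1.31 (1.24 to 1.39) and Igfbp6 1.15 (1.06 to 1.24). Of the HER2-positive Igfbp5 UMIs there, 34.7% came from 1 cell, so the Igfbp5 interval is too narrow. The Igfbp5 ratio without that cell was not computed, and its direction is not settled. Within alveolar-like cells, 85 and 496 in number, Igfbp4 had a ratio of 4.10 (2.61 to 6.36) at its low level there, Igfbp5 had 6.68 (2.19 to 20.4) on 8 UMIs a side, Igfbp7 had 1.46 (1.34 to 1.60) and Igfbp6 had 1.65 (1.38 to 1.96). Igfbp3 was lower in HER2-positive adventitial-like cells, with 0.593 (0.483 to 0.725), and had 0.916 (0.745 to 1.12) in alveolar-like ones. Igf1 had 0.873 (0.708 to 1.07) in adventitial-like and 1.04 (0.721 to 1.46) in alveolar-like cells. For Igf2 the ratio was 1.35 (0.759 to 2.41) in adventitial-like cells and 5.01 (0.734 to 29.6) in alveolar-like ones, there on 3 and 4 UMIs. For Igfbp2 it was 18.1 (2.78 to 761) and 16.7 (2.74 to 175) in the same order, on 1 and 2 HER2-negative UMIs.

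**Figure D5:**
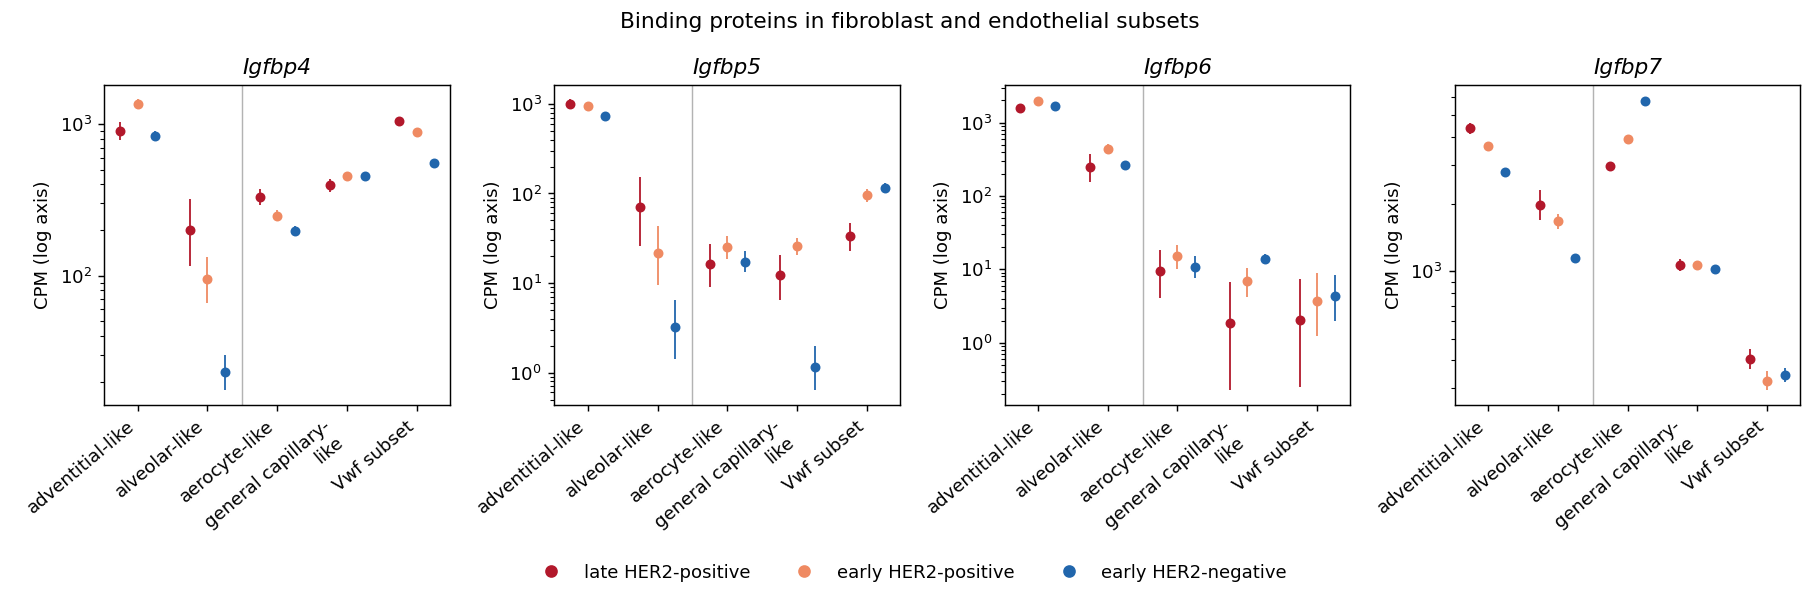
Igfbp4, Igfbp5, Igfbp6 and Igfbp7 (CPM, log axes) in subsets of fibroblasts, left of the grey line, and of endothelial cells, right of it, in the late HER2-positive, early HER2-positive and early HER2-negative libraries; bars are 95% exact Poisson intervals. Igfbp5 spans 737 to 988 CPM in adventitial-like and 3.27 to 70.6 CPM in alveolar-like fibroblasts, where the 70.6 CPM is 6 UMIs of 1 late cell. Igfbp7 spans 2948 to 5787 CPM in aerocyte-like endothelial cells.

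Smooth muscle had 1 member at least 1.5-fold higher and 4 at least 1.5-fold lower in the HER2-positive library, beside 37.5% of 10851 genes, with 21.5% higher and 16% lower. Igfbp5 had 324 CPM in HER2-positive and 721 CPM in HER2-negative smooth muscle, a ratio of 0.449 (0.384 to 0.527). For Igfbp4 the ratio was 0.472 (0.356 to 0.633), for Igfbp3 0.2 (0.124 to 0.328) and for Igf1 0.174 (0.109 to 0.281). The HER2-negative class had 60 cells, of which 18.3% had an Hhip UMI, against 2.93% of the 547 HER2-positive ones, and Hhip-positive cells had more Igf1 than the other smooth muscle cells in both. Igfbp5 had 2188 CPM in Hhip-positive and 273 CPM in other HER2-positive smooth muscle cells, and 1707 CPM in Hhip-positive and 526 CPM in other HER2-negative ones. Igfbp6, the member counted as higher, had 16.0 CPM in HER2-positive and no UMI in HER2-negative smooth muscle, at least 1.47-fold higher with 3 counts in place of 0. It is counted only with 0 set to 0.5, since that bound does not reach 1.5-fold.

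In endothelial cells 4 members were at least 1.5-fold higher and 1 at least 1.5-fold lower in the HER2-positive library, beside 20.5% of 13128 genes, with 13.9% higher and 6.67% lower. The abundant members were within 1.5-fold in the whole class: Igfbp4 had a ratio of 1.14 (1.09 to 1.19), Igfbp7 of 0.991 (0.970 to 1.01) and Igf1r of 0.980 (0.899 to 1.07). Within vessel subsets, described further below, Igfbp7 had a ratio of 0.677 (0.660 to 0.696) in aerocyte-like cells and Igfbp4 of 1.59 (1.46 to 1.73) in Vwf-picked cells. Igfbp5 had 39.9 CPM in HER2-positive and 18.1 CPM in HER2-negative endothelial cells, a ratio of 2.20 (1.86 to 2.60), and Igfbp2, Igf2 and Igfbp6 were all under 30 CPM. By subset, the Igfbp5 ratio was 0.833 (0.666 to 1.04) in Vwf-picked and 1.45 (0.968 to 2.16) in aerocyte-like cells. In general capillary-like cells it was 22.1 (12.4 to 42.3), on 79 HER2-positive UMIs from 8 cells and 14 HER2-negative UMIs. Igfbp6 had a ratio of 2.32, which turned to 0.733 without the 1 HER2-positive cell that held most of its UMIs. With the low-UMI profile taken off, Igf2 and Igfbp5 stayed at least 1.5-fold higher, and Igf1, Igfbp2 and Igfbp6 had a side at 0 and gave no value. Pericytes had 3 members at least 1.5-fold higher and 1 at least 1.5-fold lower of 7 measured, beside 25.9% of 10380 genes, with 16.7% higher and 9.18% lower. The lower one was Igfbp4, with 72.3 CPM in HER2-positive and 119 CPM in HER2-negative pericytes, a ratio of 0.609 (0.448 to 0.837). The 3 higher ones, Igfbp3, Igfbp5 and Igfbp6, had 2 to 4 HER2-negative UMIs and intervals that include 1, and without the HER2-positive cell with most UMIs the Igfbp3 ratio was 0.782.

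Among the pathway genes, HER2-positive fibroblasts had 7 of 25 measured at least 1.5-fold higher and 2 at least 1.5-fold lower. Over all 11692 genes measured there, 17.9% were higher and 13.4% lower. The pathway genes were not compared within the fibroblast subsets. The highest were Grb14, with 31.8 CPM in HER2-positive and 4.56 CPM in HER2-negative fibroblasts, Pappa2, which encodes a protease of IGF-binding proteins, with 32.6 CPM in HER2-positive and 5.13 CPM in HER2-negative ones, and Pappa, with 38.0 CPM in HER2-positive and 8.55 CPM in HER2-negative ones. In smooth muscle Pappa2 went the other way, with 2.52 CPM in HER2-positive and 21.7 CPM in HER2-negative cells. Stc1, whose protein inhibits PAPP-A, had 5.89 CPM in HER2-positive and 43.5 CPM in HER2-negative smooth muscle. Both rest on few UMIs, since 3 UMIs of the HER2-negative class make 10.9 CPM. In endothelial cells Htra1 had 42.2 CPM in HER2-positive and 7.59 CPM in HER2-negative cells, a ratio of 5.56. In pericytes Ghr had 116 CPM in HER2-positive and 59.4 CPM in HER2-negative cells.

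The endothelial members divided by vessel type. Aerocyte-like cells, the large capillary cells of gas exchange picked by Car4, Ednrb, Apln and Tbx2, numbered 96, 354 and 682 in the late HER2-positive, early HER2-positive and early HER2-negative libraries. Their Igfbp7 was 2948, 3920 and 5787 CPM, against 1067, 1069 and 1025 CPM in general capillary-like cells, picked by Gpihbp1, Aplnr and Plvap. Igfbp7 was thus higher in aerocyte-like cells in all 3 libraries, with ratios of 2.76 (2.58 to 2.97), 3.67 (3.52 to 3.82) and 5.64 (5.52 to 5.77). The late to early ratio of Igfbp7 was 0.752 (0.719 to 0.787) in aerocyte-like and 0.998 (0.932 to 1.07) in general capillary-like cells. The Vwf-picked cells described next had 1.25 (1.09 to 1.44), at a low level of 406 CPM in the late and 325 CPM in the early library. They were 32.2% of late and 18.4% of early endothelial cells. The part of these shares in the lower Igfbp7 of the whole late class was not tested. Car4, one of the genes that picked the aerocyte-like cells, had 837, 1363 and 2190 CPM in them, the same order of libraries as Igfbp7, and its part in the Igfbp7 values was not tested.

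Igfbp4 was arranged the other way round. It was highest in the endothelial cells picked by Vwf, Slc6a2 and Amigo2, a subset that also held the arterial gene Gja5, at 1043, 880 and 554 CPM in the late HER2-positive, early HER2-positive and early HER2-negative libraries. Aerocyte-like cells had 330.5, 249.5 and 196 CPM. Igfbp5 in the Vwf-picked cells had 33.5, 95.5 and 115 CPM, and in general capillary-like cells 12.2, 25.9 and 1.17 CPM. Igfbp3 was higher in late than in early HER2-positive aerocyte-like cells, with 37.6 CPM in the late and 4.02 CPM in the early library, a ratio of 9.35 (4.22 to 23.5) on 32 UMIs from 5 late cells and 8 UMIs from 4 early cells, while HER2-negative aerocyte-like cells had 26.1 CPM. General capillary-like cells had an Igfbp3 ratio of 0.766 (0.355 to 1.52).

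As a description of likeness, the genes whose log2(CPM + 10) correlated best with each member were named over the 17 units of at least 50 cells and 6501 genes; the units share libraries, and nothing about function follows. Igf1 was most like Igsf10, Mfap5 and Dpt, with a Pearson r of 0.979 to 0.974, and Igfbp3 was most like Tnfsf13b, Art4 and Igsf10 (0.971 to 0.958). Igf2 was most like Axl, Atp1b2 and Hoxb3os (0.977 to 0.970), and Igf1r most like Rbfox2, Capn2 and Cnn3 (0.967 to 0.936). For Igfbp2 the genes were Poc1a, Csf1r and Popdc3 (0.988 to 0.981), for Igfbp4 Plscr4, Meis2 and Phlda3 (0.955 to 0.940), and for Igfbp5 Pdzrn3, Atic and Pmepa1 (0.935 to 0.928). Igfbp6 was most like Efemp1, Nebl and Lrrk1 (0.934 to 0.915) and Igfbp7 most like Hint1, Pard3b and Gstm2 (0.940 to 0.914). Among the members themselves, Igf1 and Igfbp3 were the most alike pair, with a Pearson r of 0.943, and Igfbp7 had 0.718 with Igf1r and 0.716 with Igfbp4.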

How the data were processed

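The deposited values are raw counts of UMIs per gene and barcode in 3 unfiltered matrices. Per the file headers, version 3.1.0 of the matrix software wrote them, and mm10 is the build named in the submitters' processing notes. Which aligner and gene annotation the authors used is not stated in these sources. The files held 54961019 UMIs for the late HER2-positive, 49248126 for the early HER2-positive and 25610135 for the early HER2-negative library. Barcodes with at least 1000 UMIs and under 25% of UMIs on mitochondrial genes were kept, and 10 to 18 kept barcodes were shared by a pair of libraries. Classes were set by first match: mammary (Csn3 and Wfdc18, at least 1% of UMIs), AT2 (Sftpc, 10%), AT1 (Ager and Rtkn2, 4 UMIs), endothelial (Cldn5 and Cdh5, 2), smooth muscle (Myh11 and Cnn1, 3), pericyte (Higd1b and Cox4i2, 2) and fibroblast (Pdgfra and Col1a2, 2). Of the AT2 barcodes, 3422 of 3996 late and 3057 of 3939 early HER2-positive ones also met the AT1 rule. No doublet caller was run; an alternative leaves out barcodes that met several rules.

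Counts were summed per class and library (Python 3.11.15, numpy 2.4.6, scipy 1.17.1), and genes with at least 10 counts over both sides were called 1.5-fold apart. A count of 0 was set to 0.5 for calling only, and is printed with a limit of 3 counts. Recovery was checked on simulated counts. The members and gene lists were chosen with earlier results of these data known. Besides the members, named genes are pathway genes at least 1.5-fold apart with 10 CPM or more on 1 side, at most 3 in each direction per comparison, and the 3 genes most correlated with each member among those with at least 50 CPM in a unit. Fibroblast, endothelial, AT1, Hhip-positive and unclassified subsets were set after the data were seen, by first match on marker lists, by at least 2 UMIs (3 for aerocyte-like cells, 1 of Hhip). Some genes that this rule names are not reported here.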

Additional observations from a re-analysis of the deposited data

Results flagged for a closer look

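Some members were at least 1.5-fold apart in opposite directions in different classes under the same comparison, with intervals clear of 1 on both sides; the difference between classes was not tested. In the late over the early HER2-positive library, Igf1 had a ratio of 1.5 in fibroblasts, which was 1.17 without 1 late cell. It had 0.136 in AT2 cells, 0.156 in AT1 barcodes and 0.329 in smooth muscle, on 6, 2 and 11 late UMIs. With the low-UMI profile taken off, the AT2 ratio had a side at 0 and gave no value. Without Hhip-positive cells the smooth muscle ratio was 0.470, with an interval that includes 1. Igfbp3 had 2.29 in endothelial cells and 0.210 in pericytes, where it had 5 late and 22 early UMIs. In the early HER2-positive over the early HER2-negative library, Igfbp4 had 3.67 in fibroblasts, 0.472 in smooth muscle and 0.609 in pericytes. Igfbp5 had 2.20 in endothelial cells and 3.39 in fibroblasts, against 0.449 in smooth muscle. Its endothelial ratio was 0.833 in Vwf-picked, 1.45 in aerocyte-like and 22.1 in general capillary-like cells, with an interval clear of 1 only in the last.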

How the results depend on the processing

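Over 11 alternatives, 3 of them added after seeing the data, 874 member ratios were recomputed. Of these, 734 stayed within the counting interval of the reported value, 134 moved out of it and 6 turned direction. Dropping the count minimum or using a 2-fold limit cannot change a ratio, so the 94 ratios of each stayed by construction. As reported, with mammary cells left out, 8 of 9 members had the same highest class in both HER2-positive libraries. With equal weight per cell, Igf2 no longer did. Late smooth muscle then had 68.3 CPM against 59.8 CPM in late pericytes, while pericytes led in the early library at 71.3 CPM. The pathway count was recomputed only without the count minimum, where it stayed within 1.5 times. The count of members at least 1.5-fold apart in late over early pericytes, 5 as reported, was 2 without barcodes meeting more than 1 rule, whether or not the AT1 rule was counted, and 3 with the low-UMI profile taken off or a 2-fold limit. In HER2-positive over HER2-negative pericytes it was 2 in place of 4 under both of the first settings, where Igfbp5 turned direction, to log2 ratios of 0.54 (late over early) and -0.31 (by sort). In late over early smooth muscle the count was 5 with doubled class limits and 6 with equal weight per cell, against 3. Doubled limits also turned Igfbp3 in AT1 barcodes to -1.85 and Igfbp2 in fibroblasts to -0.36. With the low-UMI profile taken off, the count was 1 in AT2 cells, 2 in AT1 barcodes, 2 in endothelial cells by sort and 3 for mammary over AT2 cells; 19 ratios then had a side at 0 and gave no value, among them mammary Igfbp5, whose AT2 side was at 0. Such missing values, not smaller ratios, account for all the members lost in AT2 cells, in endothelial cells by sort and in mammary over AT2 cells. That profile's share in a class, taken from other classes' markers, ran from 0.130% to 100%, the highest in early HER2-positive AT1 barcodes. The count in late over early fibroblasts was 0 at 2-fold, and 3 in the purer AT1 subset. The cause of these shifts was not tested. No paired analysis was possible because each group holds 1 library. With 60 HER2-negative smooth muscle cells and 75 late fibroblasts, depth limits these classes most.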
